A study of Mus musculus with 4 samples.

Results

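The Sox2 hub is a contact-rich stretch on mouse chromosome 3 that was listed in 2 classes of cortical inhibitory neuron. Its members were all interactions with at least 1 anchor overlapping chr3:34000000-35200000 (mm9) by 1 bp or more. They numbered 36 of 8278 interactions in the list for somatostatin (SST) interneurons and 29 of 6733 in the list for vasoactive intestinal peptide (VIP) interneurons, or 65 of 15011 in all. Anchors overlapping chr3:34531000-34578000 were treated as the hub and all others as its surroundings. The stretch was chosen by the number of interactions at its main anchor and by how many of them the lists had in common, so both values are given as a description, with no test.

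The lists come from H3K27ac HiChIP, an assay that keeps chromatin contacts carrying acetylated lysine 27 of histone H3, a mark of active promoters and enhancers. Nuclei were taken from adult cortex of C57BL/6 mice of the genotypes Sst-cre; Sun1 and Vip-cre; Sun1. In these animals a Cre driver switches on a nuclear envelope tag in the driver's cell class, and tagged nuclei of that class were captured. Both genotypes carry the Sun1 tag, and the labels give neither the exact age nor a treatment. The labels describe 2 samples for each class, but 1 list for each was analysed here, so no value below has a replicate and none was tested between the classes. The lists give anchor positions without a read count or score, and the depth behind them is unknown. A contact that a list lacks may still have existed below the calling threshold. Cell identity was not checked against markers, since no mm9 gene annotation was used here.

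Sox2 encodes a transcription factor of the SOXB1 group that binds DNA through a high-mobility-group (HMG) box. It is best known for keeping neural stem cells and embryonic stem cells undifferentiated, and in the adult brain it is prominent in neural stem cells and glia. The gene lies within the long noncoding RNA gene Sox2ot and is surrounded by long stretches without protein-coding genes. In mouse embryonic stem cells its transcription depends on a distant enhancer downstream of the gene, the Sox2 control region. In the GRCm38 gene table, the nearest protein-coding genes on the lower-coordinate side of Sox2 were, in order, Dnajc19, Fxr1, Ccdc39, Ttc14 and Pex5l. On the higher side they were Atp11b, Dcun1d1, Mccc1, Ccdc144b and Acad9. That table belongs to another build than the lists, so it was used for names and order only, and no anchor was assigned to a gene or to a known enhancer. The name Sox2 hub follows the chosen coordinates, and whether the gene's promoter lies inside the hub anchor was not checked.

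The Sox2 promoter is shown because the hub is named after this gene. The 250 bases before its RefSeq transcription start lie at chr3:34649745-34649994 on the plus strand in GRCm38.p6; these coordinates are of that build and cannot be set against the mm9 anchors. Capitals mark matches on either strand to 3 motifs picked with this sequence in view. GGGCGG is the GC box. The CCAAT box is named after its letters. The third motif, ACAAAG, is a core bound by HMG-type factors.
Sox2 promoter: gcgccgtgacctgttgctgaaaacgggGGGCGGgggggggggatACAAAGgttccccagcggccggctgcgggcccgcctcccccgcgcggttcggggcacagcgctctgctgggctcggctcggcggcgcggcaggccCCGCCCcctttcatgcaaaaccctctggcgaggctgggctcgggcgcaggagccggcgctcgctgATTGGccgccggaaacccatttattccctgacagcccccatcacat
It held 2 GC boxes, 1 CCAAT box on the minus strand and 1 HMG-type core, and no base belonged to more than 1 match. Over all 32851 RefSeq promoter windows of the same length, 32.7% held a GC box, 33.8% a CCAAT box and 16.5% the HMG-type core. The octamer ATGCAAAT, which POU factors bind, was not in this window and was in 1.6% of all windows. The window was 72% G or C, against a median of 52.4% over all windows. These are matches of letters and no evidence of binding.

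In SST the hub was 1 anchor, chr3:34531738-34577892, which took part in 32 interactions (Poisson interval 21.9 to 45.2, counting error only). In VIP the corresponding anchor, chr3:34531738-34574387, took part in all 23 hub interactions (14.6 to 34.5). Both anchors start at the same base. A second VIP anchor, chr3:34575117-34580174, also overlapped the hub limits but reached past their upper end. Its only interaction was with the main VIP hub anchor next to it, and this stretch is partly covered by the wider SST anchor. Per 1000 interactions of each list the hub had 3.87 in SST and 3.42 in VIP.

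The hub ranked 2 among 5842 SST anchors by number of interactions, below an anchor with 44, and among 4850 VIP anchors it was 1 of 6 tied at rank 2, below an anchor with 25. The median anchor had 2 interactions in SST and 2 in VIP. At 46.2 kb (SST) and 42.6 kb (VIP) the hub was also a wide anchor, at rank 71 and rank 109 by width, against list medians of 11.8 and 12.4 kb. Its interactions made up 8.65% of the 370 SST interactions on chromosome 3 and 9.27% of the 248 VIP interactions. Across the 2320 pairs of overlapping SST and VIP anchors, 41 had 10 or more interactions in both lists, the Sox2 hub included.

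**Figure D1:**
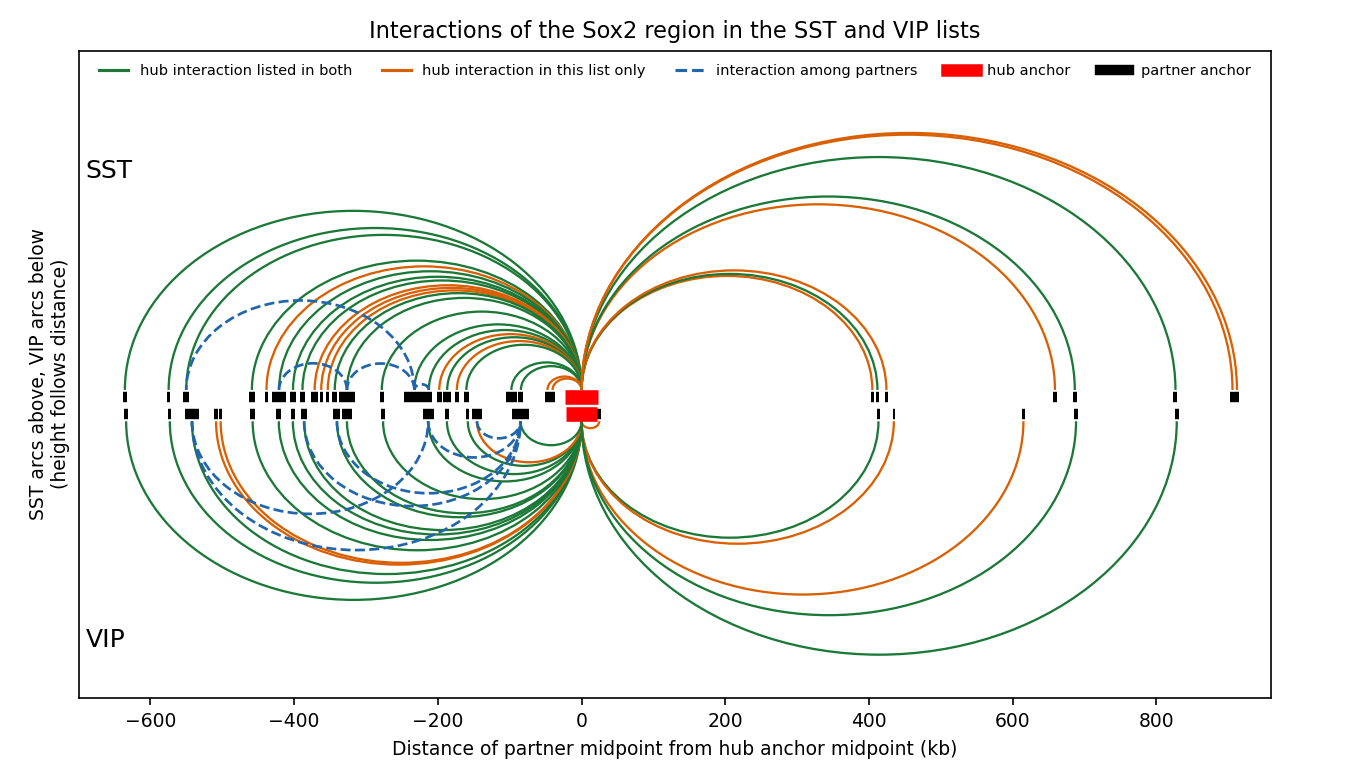
Each arc is an interaction of the Sox2 region, drawn above the axis for SST and below it for VIP, with distance from the hub anchor midpoint in kb on the x axis and arc height following the distance. The 32 SST and 23 VIP hub arcs all meet at the red hub anchor, and the dashed arcs show the 4 SST and 6 VIP interactions that join partners to each other.

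The region had the form of a star around the hub in both lists. In SST all 25 other anchors of the region were linked to the hub anchor, and in VIP all 19 were. Of the 32 SST partners, 27 had no other listed interaction (84.4%, exact interval 67.2 to 94.7%), and of the 23 VIP partners, 17 had none (73.9%, 51.6 to 89.8%). Of 407 pairs of SST partners lying within 1 Mb of each other, 4 were linked (0.983%), and of 194 such pairs in VIP, leaving out the second VIP hub anchor, 6 were linked (3.09%). No listed interaction joined a partner below the hub to a partner above it, out of 103 such pairs within 1 Mb in SST and 48 in VIP. These pairs were all more than 405 kb apart in SST and 413 kb in VIP. The longest links without the hub spanned 318 kb (SST) and 457 kb (VIP). With so few linked pairs on the whole, whether the hub separates its sides was not tested.

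The star had a stretch without any anchor on either side, and such gaps were not measured around other anchors. From chr3:33916946-33921510, the outermost partner on the lower side in both lists with the same coordinates, to the outermost partner on the higher side, hub and partners spanned 1.55 Mb in SST and 1.47 Mb in VIP. The next anchor below was 1.82 Mb away in SST and 1.82 Mb away in VIP. The next anchor above was 2.89 Mb beyond the last SST partner and 0.912 Mb beyond the last VIP partner.

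These features were set beside those of the other anchors with 10 or more interactions, 258 in SST and 206 in VIP. The median percentage of partners without another interaction was 13.3% among those SST anchors and 10% among those VIP anchors, and 5 SST anchors and 5 VIP anchors exceeded the hub. The median percentage of linked partner pairs was 27.8% in SST and 29.6% in VIP, and 5 SST anchors and 6 VIP anchors were below the hub, which stood at 2.78% in VIP with all partners counted. The hub was linked to 100% of the anchors within 1 Mb in both lists, as were 21 other SST anchors and 18 other VIP anchors, while the medians over the others were 65.6% in SST and 66.7% in VIP. The hub was thus near the sparse end in both lists but not alone there. The anchors chr8:12380569-12408967 in SST and chr8:12379376-12411281 in VIP, named after their values were seen, overlapped each other and had few links among their partners as well. The SST anchor had 20 interactions, of which 60% were shared, with 90% of its partners without another interaction and 0.526% of its partner pairs linked. The VIP anchor had 15 interactions, of which 80% were shared, with 100% of its partners without another interaction and 0% of its partner pairs linked. An anchor enters a list only through an interaction, so these percentages describe the lists and not the chromatin.

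**Figure D2:**
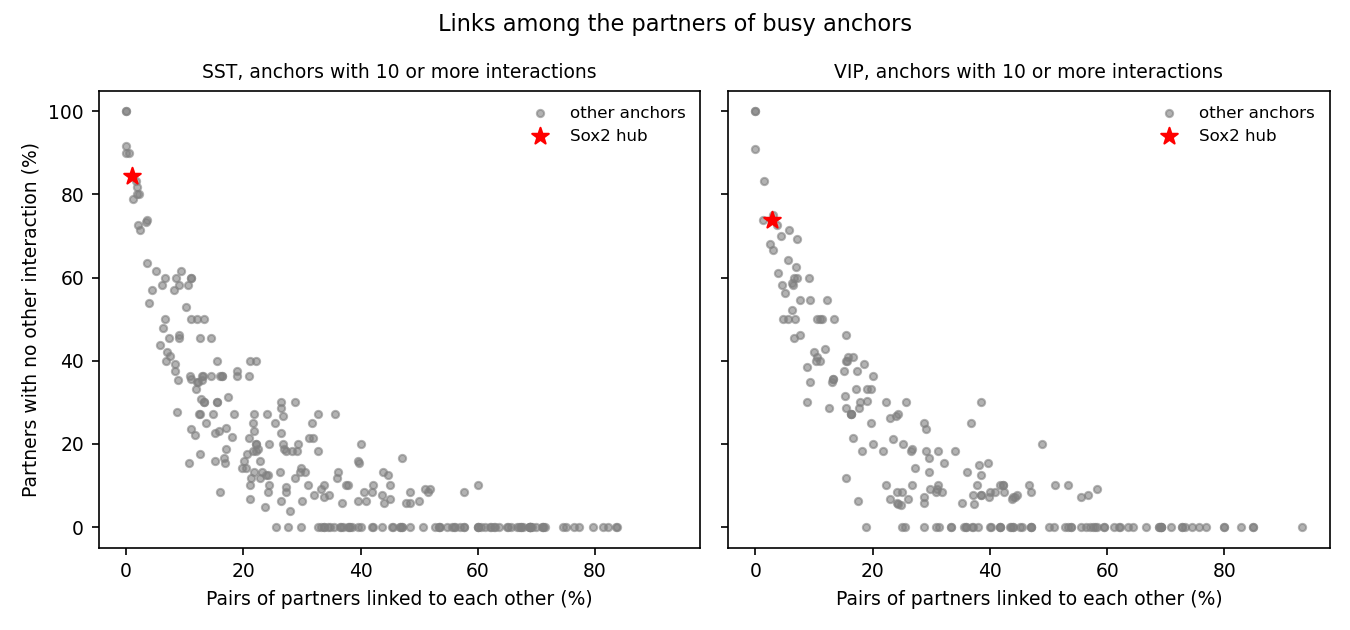
Each grey point is an anchor with 10 or more interactions (258 in SST, left; 206 in VIP, right), with the percentage of its partner pairs that are linked on the x axis and the percentage of its partners without another interaction on the y axis. The Sox2 hub, the red star, lies at the upper left in both panels, at 0.983% and 84.4% in SST and at 2.78% and 73.9% in VIP.

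Hub partners lay mostly on the lower-coordinate side. In SST 24 of 32 partners were below the hub (75%, 56.6 to 88.5%) and 8 above it. In VIP 17 of 23 were below it (73.9%, 51.6 to 89.8%), 5 above it and 1 was the second VIP hub anchor. On the lower side the distances between anchor midpoints ran from 40.4 to 636 kb in SST, with a median of 335 kb, and from 85 to 634 kb in VIP, with a median of 386 kb.

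The higher side began with a long stretch without any anchor. The nearest SST partner above the hub started at 34957857, 380 kb beyond the hub's end, and the nearest VIP partner started at 34964629, 384 kb beyond the end of the second VIP hub anchor. Between anchor edges, the nearest partners on the lower side were 14.2 kb from the hub in SST and 52.1 kb from it in VIP. Where the Sox2 control region falls in these coordinates was not determined. Beyond the empty stretch, partners were counted in 100 kb bins. Between 400 and 500 kb there were 3 SST and 2 VIP partners, and between 600 and 700 kb 2 SST and 2 VIP partners. Between 800 and 900 kb there was 1 SST and 1 VIP partner, and 2 further SST partners lay at 906 and 912 kb. Partners above the hub had a median width of 4.92 kb (SST) and 4.79 kb (VIP), and for those below it the medians were 6.99 kb (SST) and 6.71 kb (VIP).

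**Figure D3:**
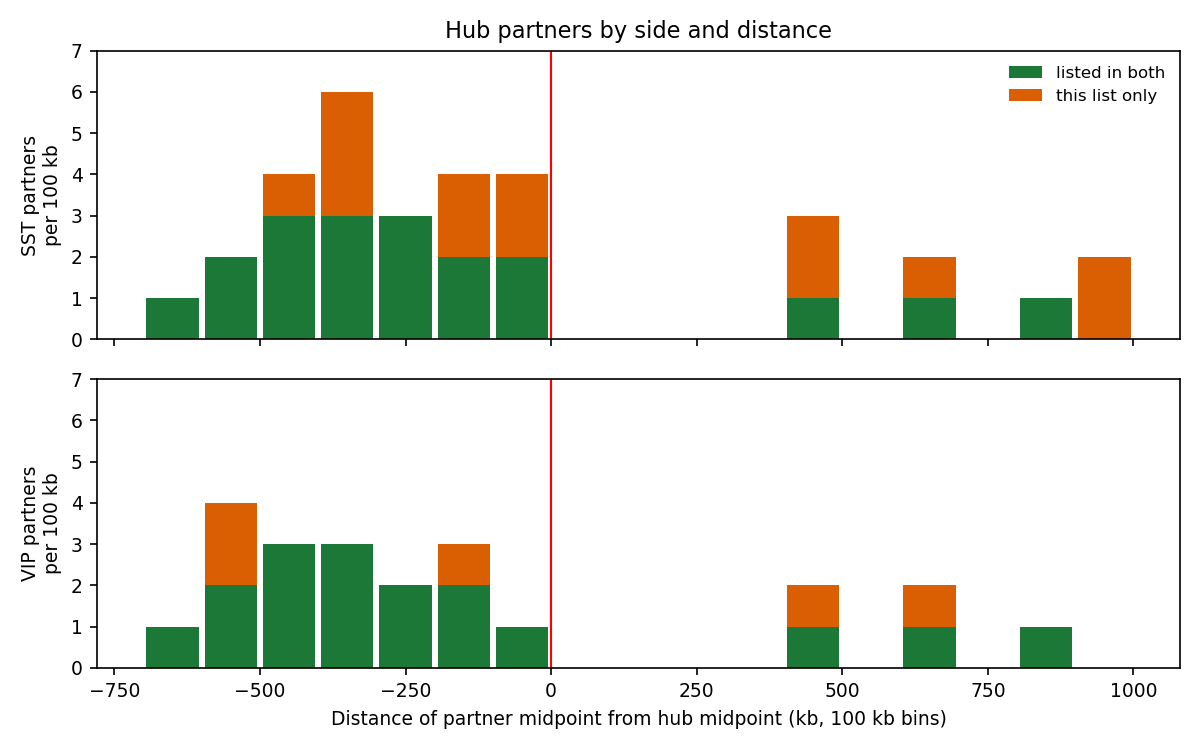
Bars give the number of hub partners per 100 kb of distance from the hub midpoint (red line) in SST (top) and VIP (bottom), with the part listed in both cell classes in green and the part in that list only in orange; the second VIP hub anchor is left out. Neither list has a partner between 0 and 400 kb on the higher side, and SST alone has partners beyond 900 kb.

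Hub interactions were long. Their median distance was 380 kb in SST (order-statistic interval 233 to 439 kb) and 413 kb in VIP (276 to 509 kb), against 178 kb over the whole SST list and 167 kb over the whole VIP list. More than 200 kb was spanned by 24 of the 32 SST interactions (75%) and by 18 of the 23 VIP interactions (78.3%), and over the whole lists by 47.8% and 46.8%. Among the busy anchors, 63 of the other 258 SST anchors and 29 of the other 206 VIP anchors had a longer median distance than the hub. The distances seen in a list are capped, the longest being 999.7 kb for SST and 995.5 kb for VIP.

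Most hub interactions were listed in both classes, counting an interaction as shared when both anchors overlapped those of an interaction in the other list by at least 1 bp. In SST 19 of 32 were shared (59.4%, exact interval 40.6 to 76.3%), beside 21.4% of all SST interactions and 18.6% of the other SST interactions on chromosome 3. In VIP 17 of 23 were shared (73.9%, 51.6 to 89.8%), beside 25.8% of all VIP interactions and 28.8% of the other VIP interactions on chromosome 3. Of the partner anchors, 19 of 32 in SST overlapped a VIP anchor, beside 36.9% of all SST anchors, and 18 of 23 in VIP overlapped an SST anchor, counting the second VIP hub anchor, beside 43.5% of all VIP anchors. Since the hub was chosen for this sharing, the gap to the background is a description. Among the other anchors with 10 or more interactions, the median percentage shared was 0% in SST and 8.33% in VIP. An anchor that overlaps no anchor of the other list has 0% shared by construction. The hub was chosen as shared, so these medians are not a like-for-like background. The hub was above these medians but not extreme, as 31 of the other 258 SST anchors and 17 of the other 206 VIP anchors had a higher percentage. The SST anchors most like the hub in number of interactions, named below, all had a higher percentage shared than the hub. The VIP anchors most like it lay on both sides of it.

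The shared interactions formed 16 groups, of which 13 had 1 interaction in each list and 3 joined several anchors on at least 1 side. Of the groups, 13 lay below the hub and 3 above it. The farthest shared partner below was the one at chr3:33916946-33921510, 636 kb from the hub in SST and 634 kb in VIP. The farthest shared partner above was chr3:35378560-35384022 in SST and chr3:35378682-35384022 in VIP, at 826 and 828 kb. The partners chr3:34273854-34279697 and chr3:35238126-35244264 likewise had the same start and end in both lists. In all, 9 of the 19 shared SST partners and 9 of the 17 shared VIP partners began at the same base as their counterpart, while 27.9% of all SST anchors that overlapped a VIP anchor and 28.5% of such VIP anchors did.

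The 3 larger groups were those in which the lists divided the same stretch into different anchors. The SST anchors chr3:34307969-34336271 and chr3:34337397-34347027 faced 1 VIP anchor, chr3:34332209-34347027. The SST anchors chr3:34449687-34464563 and chr3:34466883-34473784 faced chr3:34456520-34479622 in VIP. The SST anchors chr3:34207776-34214857 and chr3:34216592-34239938 faced chr3:34207776-34217450 and chr3:34219150-34233890 in VIP. When anchors within 5 kb were merged in each list, the hub had 20 SST and 19 VIP interactions, in place of 32 and 23, so the number depends on how anchors were divided.

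In SST only, 13 hub interactions were listed, and no partner of these overlapped a VIP anchor. Since every other anchor of the region was linked to the hub in its own list, a partner that overlapped a non-hub anchor in the other list was also linked there. A block of 3 such SST partners lay side by side at chr3:34178735-34187905, chr3:34190599-34194373 and chr3:34199344-34203811, at 7.26, 13.4 and 3.96 kb from the nearest VIP partner. Those nearest to the hub, chr3:34503943-34510600 and chr3:34511166-34517572, were 47.5 and 40.4 kb from it between midpoints. Between anchor edges, they lay 24.3 and 31.5 kb from the nearest VIP partner. The farthest, chr3:35457293-35464019 and chr3:35464626-35469089, lay 73.3 and 80.6 kb from the nearest VIP partner. The other SST-only partners were chr3:34113897-34118662, chr3:34353455-34360054 and chr3:34378319-34384169 below the hub, and chr3:34957857-34961087, chr3:34976837-34981229 and chr3:35211139-35216015 above it. Of the 13, 7 lay within 10 kb of a VIP anchor outside the hub. With that tolerance 81.2% of SST and 82.6% of VIP hub interactions counted as shared. No share over the whole lists was computed with that tolerance, so these values cannot be set beside the whole-list shares above.

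In VIP only, 6 hub interactions were listed. The partners chr3:34041105-34047632 and chr3:34048324-34053184 lay side by side, 509 and 502 kb below the hub, and their nearest SST partners were 32.5 and 38.3 kb away. The partner chr3:34400521-34414522, 146 kb below the hub, was 2.82 kb from an SST partner. Above the hub, chr3:34985816-34989362 was 4.59 kb from an SST partner and chr3:35165553-35170345 was 40.8 kb from one. The sixth was the short link to the second VIP hub anchor, 24.6 kb between midpoints. That anchor overlapped the SST hub anchor itself, as did the main VIP hub anchor, so this interaction could not count as shared. Of the 6, 2 lay within 10 kb of an SST anchor outside the hub, and no such share was computed over all anchors.

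Few interactions joined the surroundings without the hub. There were 4 in SST and 6 in VIP, of which 1 in each list was shared. This was 25% in SST and 16.7% in VIP, beside 21.4% of all SST and 25.8% of all VIP interactions, near those shares given the small counts. The shared interaction joined chr3:34000538-34008629 to chr3:34307969-34336271 in SST and chr3:34000538-34021270 to chr3:34332209-34347027 in VIP, over 318 and 329 kb. In SST the anchor chr3:34307969-34336271 took part in 3 of the 4, the others leading to chr3:34216592-34239938 and chr3:34337397-34347027, and the remaining one joined chr3:34124517-34142900 to chr3:34216592-34239938. With its link to the hub, that anchor had 4 interactions, the most of any SST anchor in the surroundings.

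In VIP the busiest anchor of the surroundings was another one. The anchor chr3:34456520-34479622, 23.1 kb wide and 85 kb below the hub, took part in 5 of the 6 VIP interactions without the hub and in 6 with it. Its partners were chr3:34000538-34021270, chr3:34162430-34171472, chr3:34207776-34217450, chr3:34332209-34347027 and chr3:34400521-34414522, each of which was also linked to the hub, at distances from the anchor of 457, 301, 255, 128 and 60.5 kb. The SST anchors that overlapped it, chr3:34449687-34464563 and chr3:34466883-34473784, each had 1 interaction, with the hub. Both ends of 4 of the 5 unshared VIP interactions, and of all 3 unshared SST interactions, overlapped anchors in the other list. No such share was computed over the whole lists. For 1 of the unshared SST interactions, chr3:34307969-34336271 to chr3:34337397-34347027, both ends overlapped the same VIP anchor, chr3:34332209-34347027. It therefore could not have a counterpart in VIP. The counts are small, and whether such differences also occur between animals of one class was not tested.

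At the limits of the chosen region, the first anchor inside the lower limit was chr3:34000538-34008629 in SST, with 2 interactions, and chr3:34000538-34021270 in VIP, with 3. The nearest anchor outside it began at 33977742 in both lists, with 1 interaction each. At the higher limit the last anchor inside was chr3:34976837-34981229 in SST and chr3:35165553-35170345 in VIP, and the first outside was chr3:35211139-35216015 in SST and chr3:35238126-35244264 in VIP, all with 1 interaction. The anchors outside the limits were linked to the hub as well, so moving the limits left all 36 SST and 29 VIP members in place.

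The anchors elsewhere most like the hub in number of interactions were sought over 2302 pairs of overlapping SST and VIP anchors, by the sum of the differences from the hub in both lists. The nearest, with a sum of 11, was chr2:71348177-71387539 in SST and chr2:71345229-71387539 in VIP, with 23 and 25 interactions, of which 15 and 15 were shared. Its partners without another interaction made up 47.8% in SST and 68% in VIP, beside 84.4% and 73.9% at the Sox2 hub, and 6.28% (SST) and 2.49% (VIP) of its partner pairs were linked, beside 0.983% and 2.78% at the hub. In VIP its percentage of linked pairs was below that of the hub. The next, with a sum of 15, was chr2:30538973-30584209 in SST and chr2:30538686-30584209 in VIP, with 21 and 19 interactions, 16 and 17 of them shared. There 14.3% of SST partners and 21.1% of VIP partners had no other interaction, and 19.7% and 23.5% of partner pairs were linked.

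The next pairs lay on chromosome 12, where the VIP anchor chr12:54664991-54761796, with 23 interactions, faced the SST anchors chr12:54664022-54701668, chr12:54706041-54743493 and chr12:54752718-54786101 with 16, 16 and 14. Of these, 13 VIP interactions and 11, 11 and 11 SST interactions were shared. On chromosome 1, chr1:166362263-166397613 in SST had 23 interactions and chr1:166361581-166394587 in VIP had 14, of which 14 and 14 were shared. Over all the pairs most like the hub, the percentage shared in SST ran from 60.9% to 78.6%, above the hub's 59.4%. In VIP, in the order named, it was 60%, 89.5%, 56.5% and 100%, beside 73.9% at the hub. The pairs were named by number of interactions alone, and with 1 list per class the differences in form could not be tested.

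**Figure D4:**
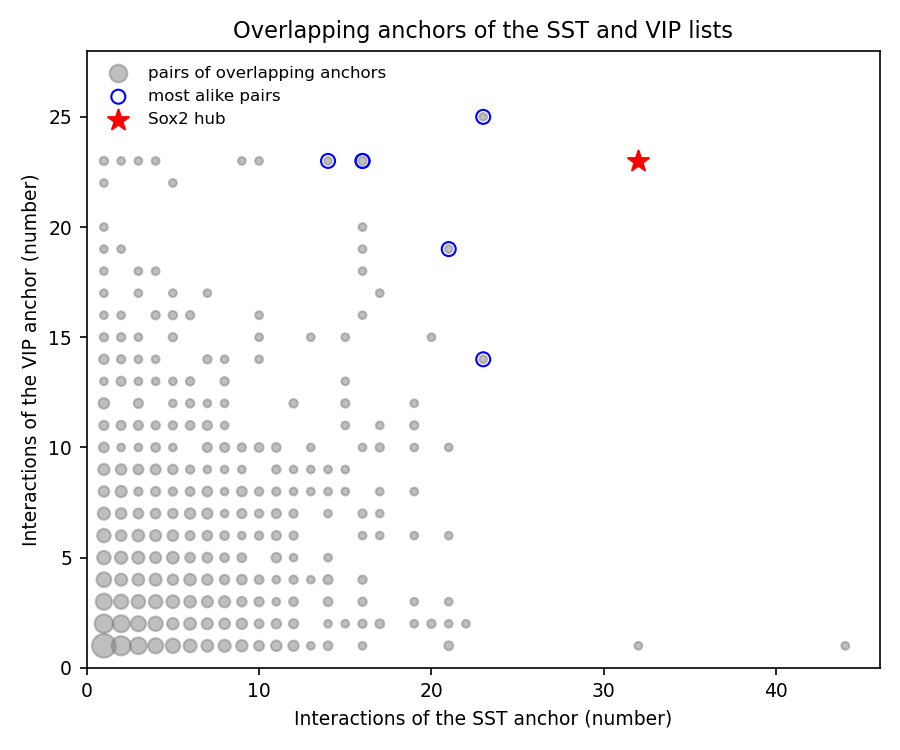
Each grey point is a combination of the number of interactions of an SST anchor (x axis) and of a VIP anchor overlapping it (y axis), with larger points for more of the 2320 pairs. The Sox2 hub, the red star at 32 and 23, lies apart from the pairs most like it, ringed in blue; the point at 32 and 1 is the SST hub anchor with the second VIP hub anchor.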

How the data were processed

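H3K27ac HiChIP was made from INTACT-captured nuclei with MboI digestion and Tn5 libraries, per the labels' protocols. HiC-Pro and mm9 are named in the submitters' processing notes. The sources used here do not state how interactions were called, at which threshold, how anchors were set or whether replicates were pooled. Each deposited list belongs to replicate 1 of its class and holds anchor positions only, without a count, score or p-value. No separate list for replicate 2 was analysed here. Coordinates are as in the files, which do not say if the first base of a chromosome is 0 or 1.

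Distances were taken between anchor midpoints. Gaps from the hub to its nearest partners, to the nearest partner in the other list and to the next anchor were taken between anchor edges. Intervals are 95% exact binomial (Clopper-Pearson), Poisson or order-statistic intervals; they cover counting error only and treat interactions as independent although they share the hub. With 1 list per class no p-value was computed. The overlap step was tested on simulated lists whose interactions lay far apart, and the merging step on close anchors that had to merge. Neither held anchors divided differently between the lists, as in this region, so matching of such anchors was not tested.

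The region, the hub limits and the comparisons were chosen with earlier results of these data known. Named anchors were the hub anchors, all hub-only partners and examples of shared ones, the 5 busiest surrounding anchors per list, those at the limits, and the 5 anchor pairs elsewhere closest to the hub in number of interactions, ties included. Promoter sequence and gene order came from RefSeq tables of GRCm38.p6. The software was Python 3.11.15 with scipy 1.17.1, numpy 2.4.6, matplotlib 3.10.9 and pandas 2.3.3.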

Additional observations from a re-analysis of the deposited data

How the results depend on the processing

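Of 86 values recomputed under other settings, 64 stayed within 1.5 times the count or within the interval of the value given. Dropping interactions under 20 kb, or moving the region or hub limits, kept every member, so those values could not change and say nothing on stability. The intervals of the surroundings were wide, 0.631 to 80.6% in SST and 0.421 to 64.1% in VIP, so staying within them says little. With interactions of up to 200 kb only, which leaves out most hub interactions by construction, the region had 11 SST and 7 VIP interactions and the hub 8 and 5, at rank 24 in SST and rank 168 in VIP; hub distances had medians of 129 kb (SST) and 146 kb (VIP), 0% of SST and 16.7% of VIP partner pairs were linked, and 0% of the surroundings were shared in SST and 0% in VIP. With identical coordinates 0% of hub interactions and 0% of surroundings interactions were shared in either list. For the hub this was fixed in advance, since its SST anchor ended at 34577892 and its main VIP anchor at 34574387. No surroundings interaction had both anchors with the same start and end in both lists. Asking that 50% of the shorter anchor overlap left 0% of surroundings interactions shared in SST and 0% in VIP. With anchors within 10 kb, 81.2% of SST hub interactions were shared. A wider match raises this share by construction, and the share over the whole list was not computed with it. Merging anchors within 5 kb gave 23 region and 20 hub interactions in SST, and 0% of VIP-only hub partners were then present in SST, since the second VIP hub anchor joined the first; the hub stayed at rank 2 in both lists. No paired analysis was possible because only 1 list per class was at hand, so leaving out a replicate was not possible either. The read depth behind the lists limits what they can hold, and it is not known.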
